A study of Mus musculus with 19 samples.

Results

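The type I interferon response was followed through 9 genes in E13.5 mouse cerebral cortex that lacked the chromatin remodeller subunit gene Ino80, alone or together with Trp53. They were 5 genes of the signalling machinery (Stat2, Irf1, Irf3, Irf7 and Irf9) and 4 genes whose products carry out the antiviral response (Ifit1, Ifit3, Isg15 and Bst2). They were looked up by Ensembl gene identifier, and all 9 were found among the 51912 genes listed in each count file. RNA was measured by Click-seq, a randomly primed, rRNA-depleted library chemistry in which click-ligated adaptors carry unique molecular identifiers, as 1 library per embryonic cortex in 19 embryos of mixed C57BL/6 and 129 background. The 7 ctrl embryos carried the label control, and their exact alleles are not given in the sources used here. The 5 cKO-E embryos were Emx1 Cre/+;Ino80 fl/fl, and the 7 dKO-E embryos carried the same alleles plus Trp53 fl/fl. Emx1-Cre acts in cortical progenitors and the cells that descend from them, so interneurons that migrate in, vessels and microglia in the same tissue kept Ino80 and Trp53. Each library is a separate embryo, and p-values therefore measure the spread between embryos, some of which were littermates. The ctrl embryos came from 4 litters, the cKO-E embryos from 5 and the dKO-E embryos from only 2. Females and males numbered 4 and 3 in ctrl, 4 and 1 in cKO-E, and 2 and 5 in dKO-E. Sequencing batches 1, 2 and 3 held 4, 3 and 0 ctrl embryos, 3, 2 and 0 cKO-E embryos, and 4, 2 and 1 dKO-E embryos. Litter, sex and batch were not in the main fits.

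In the textbook pathway, foreign or misplaced nucleic acids are sensed in the cytoplasm and the transcription factors IRF3 and IRF7 are switched on to transcribe interferon genes. Secreted interferon binds the receptor chains IFNAR1 and IFNAR2, whose kinases JAK1 and TYK2 phosphorylate STAT2. STAT2 then acts with IRF9 in a complex that binds the interferon-stimulated response element (ISRE) before genes such as Ifit1, Ifit3, Isg15 and Bst2. DNA damage is known to feed this pathway in many cell types through DNA that reaches the cytoplasm.

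The genes differ in whether the core letters of this element stand close before their start. The core was searched as GAAANNGAAA on both strands in the RefSeq promoter windows, from 250 bases before to 50 bases after each RefSeq gene start, on GRCm38.p6. It stood in 3.44% of 32851 promoter windows of all genes, and in the windows of 5 of the 9 genes. Isg15 held 3 overlapping cores, Ifit1 and Ifit3 held 2 each, Bst2 held 2 overlapping ones and Stat2 held 1. No core was found in the windows of Irf1, Irf3, Irf7 or Irf9, which says only that these letters are not there. The 5 windows with a core are shown because they set the response genes and Stat2 apart from the IRF genes, and capitals mark the cores on either strand. The stretches run 5' to 3' on the gene's strand and end 51 bases before the RefSeq start: Stat2 at chr10:128270248-128270447 (+), Ifit1 at chr19:34640744-34640838 (+), Ifit3 at chr19:34583279-34583478 (+), Isg15 at chr4:156200869-156201068 (-) and Bst2 at chr8:71537523-71537722 (-). The Ifit1 stretch is shorter because exonic bases further upstream were left out. A match is a description of letters, not a site or a cause.
Stat2: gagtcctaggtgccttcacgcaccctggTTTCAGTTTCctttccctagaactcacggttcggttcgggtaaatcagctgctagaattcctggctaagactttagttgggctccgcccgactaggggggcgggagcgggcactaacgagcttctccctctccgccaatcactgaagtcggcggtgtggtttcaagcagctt
Ifit1: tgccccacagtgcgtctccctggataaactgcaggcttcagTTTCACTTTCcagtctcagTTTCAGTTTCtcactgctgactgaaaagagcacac
Ifit3: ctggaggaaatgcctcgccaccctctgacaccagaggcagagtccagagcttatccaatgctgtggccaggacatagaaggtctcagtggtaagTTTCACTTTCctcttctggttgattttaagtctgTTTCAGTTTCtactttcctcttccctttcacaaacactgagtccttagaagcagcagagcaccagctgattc
Isg15: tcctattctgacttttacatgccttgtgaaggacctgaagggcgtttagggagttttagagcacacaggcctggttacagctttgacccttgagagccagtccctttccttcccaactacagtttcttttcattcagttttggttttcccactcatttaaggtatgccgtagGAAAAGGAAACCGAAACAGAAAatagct
Bst2: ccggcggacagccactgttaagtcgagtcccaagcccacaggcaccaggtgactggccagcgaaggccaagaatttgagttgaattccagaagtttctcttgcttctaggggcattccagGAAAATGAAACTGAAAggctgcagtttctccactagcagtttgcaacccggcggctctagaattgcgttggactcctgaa

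Libraries held between 820915 and 8095810 counts in genes (median 2952788), so that 3 counts stood for 0.370 to 3.73 CPM (counts scaled to equal library size). The depth was lowest in cKO-E D and in dKO-E G (885159 counts). Of 12 markers of cortical progenitors and neurons 11 were detected, with Sox2 listed at 0 in all 19, and they summed to 1998 to 2438 CPM in ctrl, 2169 to 2459 in cKO-E and 1727 to 2183 in dKO-E. In cKO-E against ctrl 6 of the 11 were called lower (Emx1, Emx2, Eomes, Fezf2, Neurog2 and Pax6) and Reln was called higher, and their part in the values below was not tested. Gene-level Ino80 counts do not check the deletion, because they include exons outside the deleted part: the means were 121.7 ± 8.73 CPM in ctrl, 167.4 ± 14.8 in cKO-E and 187.3 ± 13.8 in dKO-E (SD, n = 7, 5 and 7). For Trp53 they were 43.9 ± 5.21, 39.5 ± 4.68 and 34.8 ± 4.96 CPM. The 17 microglia markers summed to between 10.6 and 23.0 CPM in ctrl, 48.2 to 62.1 in cKO-E and 13.5 to 16.4 in dKO-E. Markers of ventral telencephalon, the source of cortical interneurons, summed to between 9.21 and 84.3 CPM in ctrl, 64.2 and 119.3 in cKO-E and 29 and 69.7 in dKO-E. The cKO-E and dKO-E embryos shared no litter, so litter and genotype cannot be told apart between them. The library dKO-E F was the highest of all in the summed response genes and in the summed other stimulated genes, though not in each response gene singly. The differences of Irf9 and the summed counts are given with and without it.

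The response genes were near the limit of detection in all 3 genotypes, while 3 signalling genes held enough counts to be tested. All 9 genes together held 2399 of the 58630571 gene counts of the series, and Stat2 (901 counts), Irf3 (863) and Irf9 (537) held 37.6%, 36% and 22.4% of these. Irf1 had 54 counts, Bst2 22, Irf7 10, and Ifit1, Ifit3 and Isg15 had 4 each. Scaled to exon length, mean levels over the 19 libraries were 4.29 ± 0.746 CPM per kb for Irf3, 2.504 ± 0.586 for Stat2 and 1.72 ± 0.411 for Irf9 (SD, n = 19). The neighbours in this order lay more than 1 SD of either gene apart, and Irf3 stood above 70.7% of the 27672 genes detected. Bst2 followed at 0.407 ± 0.499 CPM per kb, Irf1 at 0.224 ± 0.185, Isg15 at 0.132 ± 0.298, Irf7 at 0.0590 ± 0.0952, Ifit1 at 0.0437 ± 0.131 and Ifit3 at 0.0361 ± 0.0770. These 6 neighbours did not differ beyond their spread.

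Stat2 (chr10:128270559-128292849, +) encodes the STAT that serves type I and type III interferon, and Irf9 (chr14:55603571-55610030, +) encodes its DNA-binding partner. Stat2 ranged from 11.2 CPM (lowest) over 12.2 (median) to 16.8 (highest) in ctrl and from 9.79 over 16.05 to 19.1 in dKO-E, and was 22.6, 15.3, 19.1, 9.94 and 12.9 CPM in cKO-E A to E. The 3 groups overlapped, cKO-E spread most, and the lowest values belonged to dKO-E G and cKO-E D, the shallowest libraries. In sequencing batch 1, Stat2 was 15.3 to 22.6 CPM in cKO-E, 12.2 to 16.8 in ctrl and 16.02 to 19.1 in dKO-E. In batch 2 it was 9.94 and 12.9 CPM in cKO-E, 11.2 to 11.97 in ctrl, and 16.05 and 9.79 in dKO-E. The cKO-E values of batch 2 thus lay on either side of ctrl. Means were 13.1 ± 2.12 CPM in ctrl, 16.0 ± 4.99 in cKO-E and 15.8 ± 3.04 in dKO-E (SD, n = 7, 5 and 7). Irf9 ranged from 6.00 over 7.84 to 11.97 CPM in ctrl and from 9.25 over 9.96 to 16.05 in dKO-E, and was 9.30, 9.92, 8.07, 9.94 and 6.79 CPM in cKO-E A to E. All 7 dKO-E values lay above 6 of the 7 ctrl values, with ctrl H the exception, and dKO-E F was far above the other dKO-E embryos. Means were 8.14 ± 1.87 CPM in ctrl, 8.80 ± 1.36 in cKO-E and 10.8 ± 2.40 in dKO-E. Irf9 shares 123 exonic bases with its same-strand neighbour Rnf31, which was called in no comparison.

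Irf3 (chr7:44997648-45002848, +) encodes the factor that cytoplasmic nucleic acid sensing activates first. It ranged from 11.2 CPM over 13.1 to 17.8 in ctrl and from 14.3 over 16.43 to 20.4 in dKO-E, and was 11.6, 13.6, 13.9, 12.4 and 12.2 CPM in cKO-E A to E. Every dKO-E embryo was above every cKO-E embryo, whose 5 values were the most tightly grouped, while ctrl overlapped with both. The gap was narrow, from 13.94 CPM in cKO-E C to 14.3 in dKO-E E. The dKO-E E value rests on 17 counts, where 1 count stands for 0.841 CPM, and that of cKO-E D on 10 counts. Means were 14.0 ± 2.40 CPM in ctrl, 12.8 ± 0.974 in cKO-E and 16.9 ± 1.97 in dKO-E. The genes with the most similar profile over the 19 libraries were Mob2, Rprd1b and Mllt6, with mean absolute differences of scaled log2 CPM of 0.387, 0.436 and 0.465 against a median of 1.10 over 12047 genes.

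**Figure D1:**
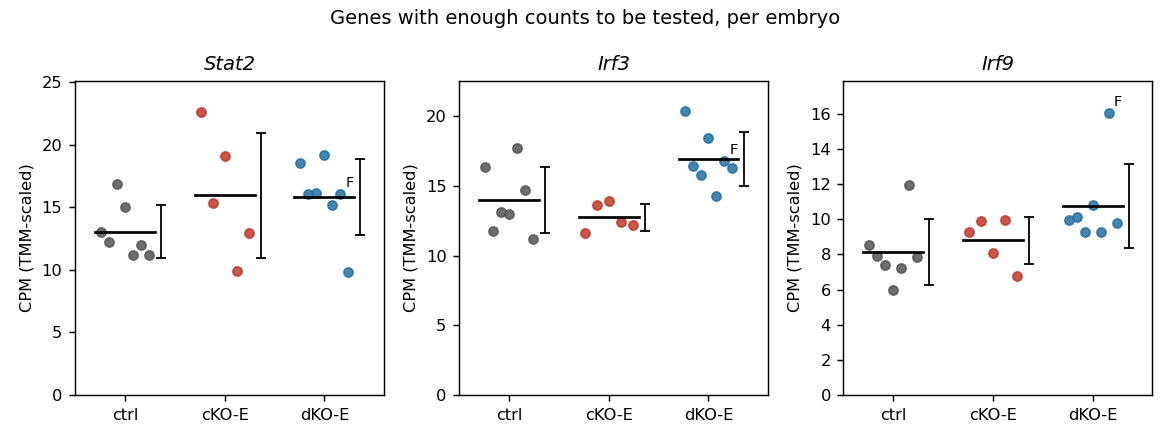
TMM-scaled CPM of Stat2, Irf3 and Irf9 (vertical axes) in each embryo of the ctrl (n = 7), cKO-E (n = 5) and dKO-E (n = 7) groups. Points are embryos, horizontal lines group means, and bars 1 SD to each side; the letter F marks dKO-E F. Irf3 in dKO-E (14.3 to 20.4 CPM) lies above all cKO-E embryos (11.6 to 13.9 CPM), and Irf9 is highest in dKO-E F at 16.05 CPM.

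Irf1 (chr11:53770014-53778374, +), an early interferon-induced activator, was detected in 15 of 19 libraries at 6 counts or fewer. Its values were 0 to 2.24 CPM (median 1.33) in ctrl, 1.66, 0.850, 0.367, 0 and 0.340 CPM in cKO-E A to E, and 0 to 2.24 CPM (median 0.741) in dKO-E. The groups overlapped over most of their range, with means of 1.15 ± 0.765, 0.643 ± 0.644 and 0.807 ± 0.792 CPM. Irf7 (chr7:141262706-141266481, -), the interferon-inducible factor that amplifies the response, had 2 counts in the 7 ctrl libraries, 6 in the 5 cKO-E libraries and 2 in the 7 dKO-E libraries. The counts per library were 0, 1, 1, 1 and 3 in cKO-E A to E and 0 or 1 elsewhere. Pooled levels were 0.0964 CPM in ctrl (95% exact Poisson interval 0.0117 to 0.348), 0.461 in cKO-E (0.169 to 1.00) and 0.0821 in dKO-E (0.00994 to 0.297), intervals that cover counting error only and overlap.

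Ifit1 (chr19:34640871-34650009, +) and Ifit3 (chr19:34583531-34588731, +) encode antiviral proteins that bind foreign RNA or partner such proteins. Ifit1 had no count in any of the 12 ctrl and cKO-E libraries, which allows up to 0.145 and 0.230 CPM in these groups (3 counts over the group). Its 4 counts came from dKO-E F (3 counts) and dKO-E G (1 count). Ifit3 had 1 count in ctrl D, cKO-E C, dKO-E C and dKO-E F, and its near-identical neighbour Ifit3b, with which it can share reads, had 1 count in all. Isg15 (chr4:156199424-156200818, -), the ubiquitin-like modifier, had 1 count in ctrl H, cKO-E C, dKO-E D and dKO-E E. At this depth neither gene separates the genotypes. Bst2 (chr8:71534255-71537456, -), which encodes tetherin, the membrane anchor that retains budding virus, had 4 counts in 4 of 7 ctrl libraries, 9 in 4 of 5 cKO-E libraries and 9 in 3 of 7 dKO-E libraries. Its values were 0.996, 0.567, 1.10, 0 and 0.340 CPM in cKO-E A to E, 0 to 0.658 CPM in ctrl, and up to 1.49 CPM in dKO-E, where F held 4 of the 9 counts and B another 4. For contrast, Ifit2, a neighbour of the same family that is not among the 9 and was picked after its values were seen, had 493 counts and was detected in all 19 libraries.

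**Figure D2:**
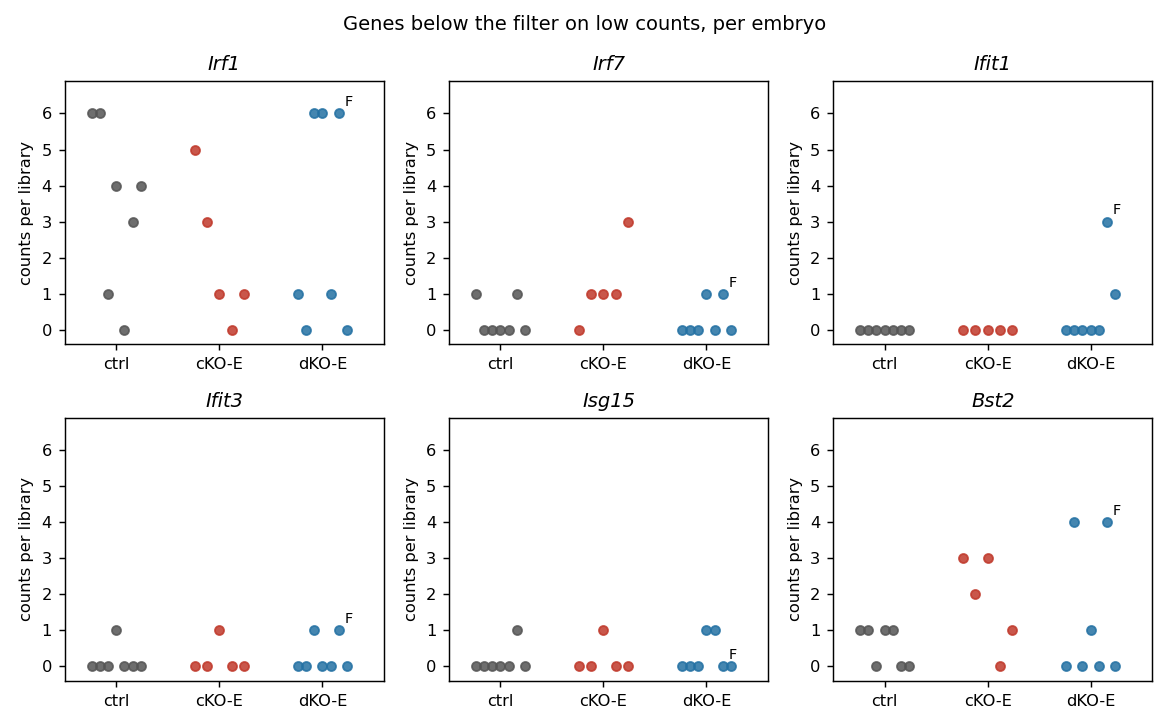
Counts per library (vertical axes) of the 6 genes too low to be tested in the fit across all genes, Irf1, Irf7, Ifit1, Ifit3, Isg15 and Bst2, by genotype. Each point is an embryo. Most points lie at 0 or 1 outside Irf1, Irf1 reaches 6 counts, and 3 of the 4 Ifit1 counts come from dKO-E F.

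None of the 3 signalling genes that could be tested, Stat2, Irf3 and Irf9, was called changed after loss of Ino80 alone. They passed the filter on low counts, and 0 of these 3 differed between cKO-E and ctrl at an adjusted p of 0.05 (edgeR quasi-likelihood test, Benjamini-Hochberg adjustment over 11660 genes), where 17.2% of all genes tested were called. At an unadjusted p under 0.05 the count was also 0, against 29.8% of all genes, and DESeq2 likewise called 0. None of the 3 was free of overlap between the groups, against 8.77% of genes. The log2 fold change was 0.33 ± 0.17 for Stat2 (SE, 95% interval -0.03 to 0.69, edgeR adjusted p = 0.209), 0.10 ± 0.18 for Irf9 (-0.28 to 0.49, adjusted p = 0.771) and -0.11 ± 0.14 for Irf3 (-0.41 to 0.19, adjusted p = 0.696). These intervals leave room for an increase of each of the 3, the least for Irf3, but not for a doubling of any. In bulk tissue, fewer cells of a type and less RNA per cell cannot be told apart.

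Among the 6 genes below the filter, Irf7 was the only 1 whose mean differed at an unadjusted p under 0.05 in cKO-E. It was 0.582 ± 0.525 CPM in cKO-E and 0.103 ± 0.185 in ctrl, a difference of 0.480 CPM (two-sided exact permutation test, p = 0.0429, not adjusted, 1 of 27 tests of this kind). The p lay between 0.0121 and 0.13 when single embryos were left out (under 0.05 in 4 of 12 cases), and was 0.257 within sequencing batch 1 and 0.1 within batch 2, the smallest the 3 against 2 embryos there allow. Bst2 was 0.601 ± 0.457 CPM against 0.208 ± 0.242 (exact permutation p = 0.0846). Within batch 1 the exact permutation p was 0.0286, the smallest that 3 against 4 embryos allow. In batch 2 Bst2 was 0 and 0.340 CPM in cKO-E D and E, and 0.658, 0 and 0 CPM in ctrl F, H and I. There cKO-E did not stand above ctrl. Litters 4, 5 and 7 held both ctrl and cKO-E embryos, which these tests do not use. Within them Irf7 was 0.283, 0.367 and 1.02 CPM in cKO-E against ctrl means of 0, 0 and 0.230, and Bst2 was 0.567, 1.10 and 0.340 CPM against 0, 0.495 and 0, from 3 counts or fewer per library. The summed microglia markers of every cKO-E embryo lay above those of every ctrl embryo, as given above, with 13 to 17 of the 17 markers detected per library in cKO-E and 11 to 15 in ctrl. Their part in the Irf7 and Bst2 counts was not tested.

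In dKO-E, Stat2, Irf3 and Irf9 all had means above ctrl, and none passed the adjusted threshold. The count was 0 of 3, where 15.5% of 11381 genes were called. At an unadjusted p under 0.05 it was 3 of 3, against 29.6% of all genes, and DESeq2 called 0. The log2 fold change was 0.40 ± 0.17 for Irf9 (SE, 95% interval 0.05 to 0.75, edgeR adjusted p = 0.113), 0.29 ± 0.12 for Irf3 (0.04 to 0.54, adjusted p = 0.113) and 0.30 ± 0.13 for Stat2 (0.03 to 0.57, adjusted p = 0.130). The groups overlapped for each of the 3, whereas 4.44% of all genes did not overlap. The median log2 fold change of all genes was 0.01, so the 3 values stand above the centre of the distribution. Irf9 was 0.29 without dKO-E F (adjusted p = 0.231) and 0.51 without ctrl H (adjusted p = 0.0385), where it passed the threshold. With libraries scaled to total counts the 3 genes all passed, at log2 fold changes of 0.39 (Stat2), 0.38 (Irf3) and 0.50 (Irf9), but that scaling moved the median of all genes to 0.10. Stat2, Irf3 and Irf9 had 26, 27 and 26 alternative edgeR or DESeq2 settings. Their lowest log2 fold changes there were 0.24, 0.24 and 0.23. The adjusted p reached 0.270, 0.449 and 0.635, and was under 0.05 in 1, 2 and 2 settings.

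Litter 1 was the only litter that held both ctrl and dKO-E embryos. There the 3 dKO-E embryos had 15.8, 16.43 and 20.4 CPM of Irf3 and the 2 ctrl embryos 11.8 and 16.35. Stat2 was 16.02 to 18.5 CPM in dKO-E and 12.2 and 13.0 in ctrl there, and Irf9 was 9.26 to 10.1 CPM against 7.94 and 8.57. In this litter the dKO-E values of Stat2 and Irf9 were all above the ctrl values, and those of Irf3 overlapped. None of the 6 low genes differed between dKO-E and ctrl (exact permutation p of 0.421 for Irf1, 0.853 for Irf7, 0.462 for Ifit1, 0.731 for Ifit3 and Isg15, and 0.604 for Bst2, unadjusted), at counts too low to show a moderate difference. The Bst2 difference, dKO-E minus ctrl, was 0.154 CPM and turned to -0.0350 without dKO-E F.

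Between the mutants, where litter and genotype cannot be told apart, Irf3 was the only 1 of the 3 tested genes that was called. Its level in dKO-E exceeded that in cKO-E by 0.41 ± 0.13 on the log2 scale (SE, 95% interval 0.14 to 0.67), a 1.325-fold difference, with an edgeR adjusted p of 0.0381. That is 1 of 3 genes tested, where 15% of 11746 genes were called, and 1 of 3 at an unadjusted p under 0.05, against 27.5%. All 7 dKO-E embryos were above all 5 cKO-E embryos, a separation seen in 7.09% of genes. For Irf3 the gap was smaller than 1 count of dKO-E E. The exact permutation p was 0.00253 for Irf3, 0.101 for Irf9 and 0.929 for Stat2 (two-sided, 792 splits, unadjusted, 3 of 27 tests of this kind). For Irf3 it draws on the same values as the separation and is not separate evidence. Irf9 differed by 0.31 ± 0.18 (-0.07 to 0.68, edgeR adjusted p = 0.291), and by 0.19 without dKO-E F (adjusted p = 0.513). Stat2 differed by -0.03 ± 0.17 (-0.38 to 0.32, adjusted p = 0.954).

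The size of the Irf3 difference was steadier than its call. Over 24 alternative settings its log2 fold change stayed between 0.37 and 0.46, while the adjusted p ranged from 0.0193 to 0.141 and was under 0.05 in 10. DESeq2 gave an adjusted p of 0.103, the fit without cKO-E D and dKO-E G, chosen after seeing the data, 0.0618, and batch 1 alone 0.134. Leaving out any single cKO-E embryo (A, B, C, D or E) or dKO-E A, B, D or F took the adjusted p above 0.05, to at most 0.0998. Irf3 shares 88 exonic bases with Bcl2l12 on the opposite strand, and whether counting used strand is not given in the sources used here. Bcl2l12 itself differed by 0.46 between the mutants (edgeR adjusted p = 0.0920) and was called higher in dKO-E than in ctrl (0.60, adjusted p = 0.0187). The part of this overlap in the Irf3 difference was not tested.

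Irf7 had a smaller mean in dKO-E by the unadjusted test, at 0.0855 ± 0.152 against 0.582 ± 0.525 CPM, a difference (dKO-E minus cKO-E) of -0.497 CPM (exact permutation p = 0.0354). The p ranged from 0.00909 to 0.0667 when single embryos were left out was 0.257 within batch 1 and 0.333 within batch 2, the smallest that 2 against 2 embryos allow. The summed microglia markers differed in the same direction, as given above, with 8 to 16 of the 17 markers detected per library in dKO-E, and their part in this difference was not tested.

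**Figure D3:**
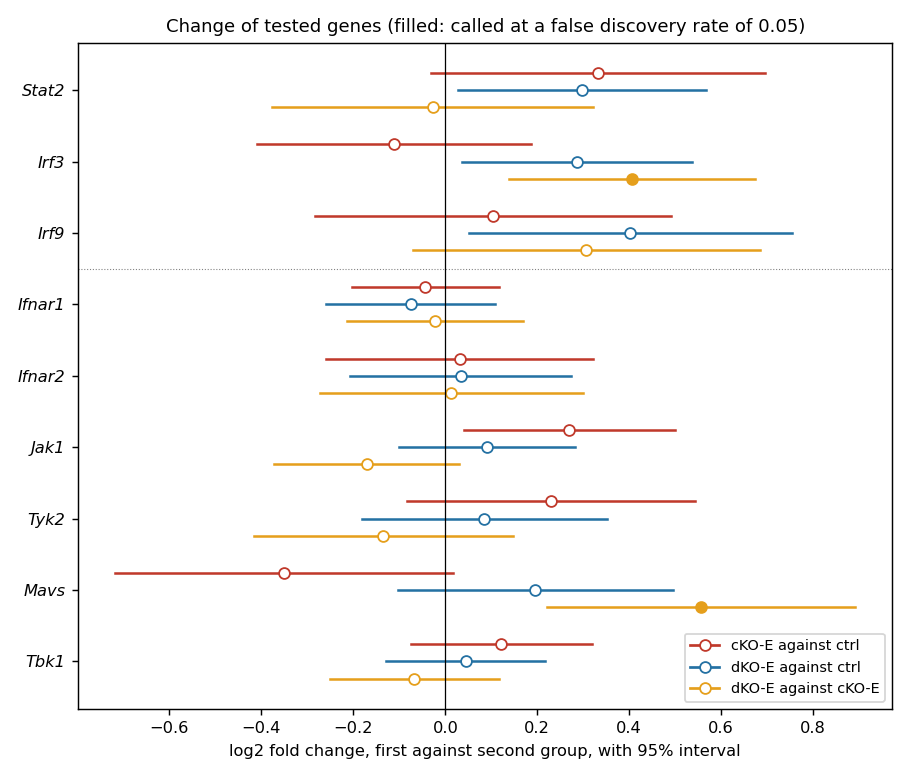
Log2 fold changes (horizontal axis) with 95% intervals for Stat2, Irf3 and Irf9 and for the receptor, kinase and adaptor genes Ifnar1, Ifnar2, Jak1, Tyk2, Mavs and Tbk1, in the 3 comparisons. Filled points passed an edgeR adjusted p of 0.05. Irf3 (0.41) and Mavs (0.56) in dKO-E against cKO-E are the filled points.

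Summed over the 9 genes, dKO-E held the highest level and the groups overlapped. The sums were 32.5 to 41.0 CPM in ctrl (median 36.8), 46.2, 40.5, 43.7, 33.6 and 33.6 CPM in cKO-E A to E, and 37.0 to 54.5 CPM in dKO-E (median 43.4). Means were 36.8 ± 3.14, 39.5 ± 5.76 and 45.3 ± 6.25 CPM (SD, n = 7, 5 and 7), from 761, 527 and 1111 counts. The ratio of means was 1.075 for cKO-E to ctrl, 1.23 for dKO-E to ctrl and 1.15 for dKO-E to cKO-E, given as a description. Without dKO-E F the last 2 ratios were 1.19 and 1.11. Within sequencing batches the cKO-E to ctrl ratio changed direction, at 1.18 in batch 1 and 0.914 in batch 2. The dKO-E to ctrl ratio was 1.26 and 1.245 there, and the dKO-E to cKO-E ratio 1.07 and 1.36. Batch 2 held only 2 dKO-E embryos, F at 54.5 and G at 37.0 CPM. Its dKO-E ratios thus lean on F, and G lay within the ctrl range. The sum is carried by Stat2, Irf3 and Irf9. Summed alone, these 3 genes gave ratios of 1.07 for cKO-E to ctrl, 1.24 for dKO-E to ctrl and 1.16 for dKO-E to cKO-E. The 4 response genes together had 6 counts in ctrl, 11 in cKO-E and 17 in dKO-E, of which 8 came from dKO-E F.

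**Figure D4:**
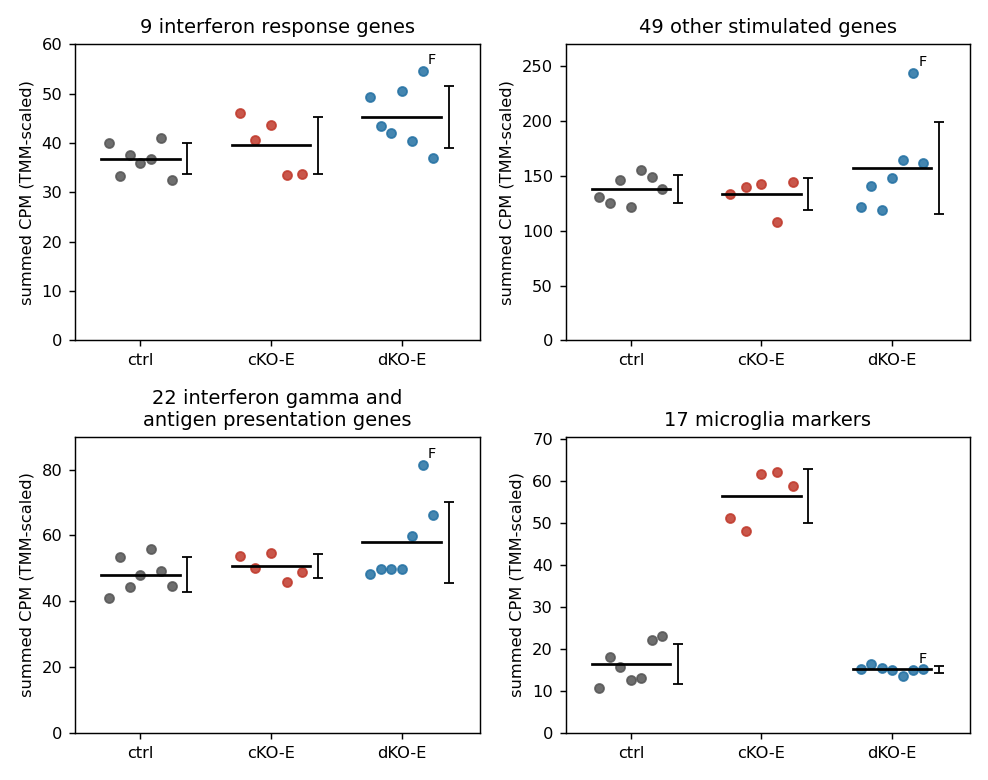
Summed TMM-scaled CPM (vertical axes) per embryo for the 9 genes, 49 other interferon-stimulated genes, 22 interferon gamma and antigen presentation genes and 17 microglia markers, by genotype. Points are embryos, lines means and bars 1 SD to each side. dKO-E F is the highest embryo in the first 3 panels (54.5, 243.4 and 81.4 CPM) and lies among the other dKO-E embryos for microglia markers, which are highest in cKO-E.

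One embryo, dKO-E F, stood above the other embryos of its genotype in the summed stimulated genes and in some single genes of the pathway. Its 49 other stimulated genes summed to 243.4 CPM, against 119 to 164 CPM in the other dKO-E embryos, at most 155.2 in ctrl and at most 144 in cKO-E. Among the 9 genes it had the highest Irf9, 3 of the 4 Ifit1 counts, 1 of the 4 Ifit3 counts, and 4 of the 22 Bst2 counts, but no Isg15 count, whereas Irf3 (16.8 CPM) and Stat2 (16.05 CPM) were near the dKO-E means. The genes named next were chosen after their values were seen. Rnf213, a large antiviral ubiquitin ligase, was 71.3 CPM there and 9.94 to 26.9 (median 17.1) in the other 18 embryos. This 1 gene thus held 71.3 of the 243.4 CPM summed over the 49 stimulated genes, a large part of what set that sum apart. The RNA sensor gene Ddx58, which encodes RIG-I, was 10.8 CPM against at most 6.21, and the STAT2-binding inhibitor gene Usp18 5.97 against at most 1.90. Mx2 was 5.599 CPM against at most 1.36, and Nlrc5 5.599 against at most 1.68. Ifit2 went the other way, at 6.72 CPM in dKO-E F against 6.97 to 14.5 in the other 18 embryos. Isg20, Oas3, Oasl1, Ifitm3 and Xaf1, with at most 4 counts in any other library, had 0 counts there. Of the 46 stimulated genes with counts, 13 were highest in dKO-E F. In all, 23 of the 118 pathway genes with counts were highest in dKO-E F, while the other libraries were highest for 1 to 14 each. Microglia markers summed to 14.9 CPM in this embryo, within the dKO-E range of 13.5 to 16.4. A single embryo has no replicate, and no test was made of it.

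The rest of the pathway, 139 further genes of which 118 had counts, held a smaller share of called genes than the 17.2%, 15.5% and 15% over all genes tested in the 3 comparisons. These shares rest on few calls, and their difference from all genes was not tested. In cKO-E against ctrl 0 of the 42 genes tested were higher and 4 were lower (9.52% called, median log2 fold change -0.06 against 0.02 over all genes). These were Dtx3l, an antiviral ubiquitin ligase (-0.90, edgeR adjusted p = 0.0135), the cytoplasmic DNA sensor gene Aim2 (-0.52, adjusted p = 0.00347), Irf2, a repressor of interferon-stimulated genes (-0.43, adjusted p = 0.00211), and the STAT inhibitor gene Pias1 (-0.24, adjusted p = 0.0368). Dtx3l shares 458 exonic bases with Parp9 on the opposite strand. In dKO-E against ctrl 1 of 41 was higher and 3 were lower (9.76%, median 0.03 against 0.01). The higher one was Irak1, a kinase of Toll-like receptor signalling, at 35.9 against 20.5 CPM (0.80, adjusted p = 1.49e-05), and the lower ones were Aim2 (-0.35, adjusted p = 0.0125), Irf2bp2 (-0.35, adjusted p = 0.0373) and Pias1 (-0.20, adjusted p = 0.0308).

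In dKO-E against cKO-E 2 of 43 were higher and 1 was lower (6.98%, median 0.13 against 0.02). Mavs, the mitochondrial adaptor through which RNA sensors activate IRF3, was 6.31, 6.52, 6.24, 6.21 and 7.47 CPM in cKO-E A to E and 8.59 to 11.8 CPM (median 9.79) in dKO-E. The 2 groups did not overlap, and the log2 fold change was 0.56 ± 0.16 (SE, edgeR adjusted p = 0.0237). Mavs was not among the calls of DESeq2, of batch 1 alone or of the fits without cKO-E A, B or C, while Irak1 and Jak2 were called in all of these. Irak1 was higher (0.55, adjusted p = 0.00640), again without overlap, and the kinase gene Jak2 was lower (-0.44, adjusted p = 0.0111).

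The receptor genes Ifnar1 and Ifnar2 lay within 0.08 of 0 on the log2 scale in each comparison, and Jak1, Tyk2 and Tbk1, the kinase that phosphorylates IRF3, were called in none. The largest of these values was 0.27 for Jak1 in cKO-E against ctrl (edgeR adjusted p = 0.103). Cgas, which encodes the DNA sensor cGAS, was below the filter, with means of 0.466, 0.396 and 1.23 CPM in ctrl, cKO-E and dKO-E. So was Tmem173, which encodes its partner STING (2, 0 and 8 counts). All 12 interferon ligand genes were listed at 0 in all 19 libraries. Of the 49 other stimulated genes, 9, 9 and 10 were tested in cKO-E against ctrl, dKO-E against ctrl and dKO-E against cKO-E. Dtx3l in cKO-E was the 1 call among them.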

How the data were processed

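Per the labels and the study's methods, rRNA-depleted RNA of 1 E13.5 cortex per library was made into Click-seq libraries. The authors trimmed reads with cutadapt 1.13, aligned them to the mouse genome (mm10) with STAR 2.5.2a, collapsed reads that shared an identifier (UMI-tools 0.5.3) and deposited raw gene counts from HTSeq 0.6.1p1. The GENCODE release and the strand setting are not given in the sources used here. Summary lines without a gene (no feature 4.96 to 12.5% and not unique 14.9 to 20.9% of reads) were left out.

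The 9 genes and all lists were chosen with earlier results of these data known. Each comparison was fitted on its own 2 groups with edgeR 4.0.16 (R 4.3.3): filterByExpr, TMM factors, quasi-likelihood test, no covariates, Benjamini-Hochberg adjustment over all genes tested, threshold 0.05. CPM values use TMM factors over all 19 libraries, errors of folds are SE, and the fit was tested on simulated data. Means of genes below the filter were compared by two-sided exact permutation tests of CPM, which were also run for Stat2, Irf3 and Irf9. Named genes were the 9, the fixed pathway genes Ifnar1, Ifnar2, Jak1, Tyk2, Cgas, Tmem173, Mavs and Tbk1, and every called gene of the pathway list, and others are said to be chosen afterwards. A further gene of this rule is not reported here. Coordinates are from GENCODE M21 (GRCm38) and promoters from RefSeq. 51633 of 51912 identifiers matched M21. Alternatives were DESeq2 1.42.0, other scalings, filters, covariates and blocks, a threshold of 0.001, and leaving out libraries.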

Additional observations from a re-analysis of the deposited data

Results flagged for a closer look

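In 15 of 111 sets of values, 1 embryo stood far from the others of its genotype by Dixon's criterion. For independent, normally distributed values it flags about 1 set in 20 by chance. That rate cannot be set against the 15 here, because a single nonzero value among zeros is always flagged and some sums share genes. Of the 15 sets flagged, 5 concern dKO-E F as the highest embryo: Irf9 at 16.05 CPM (next 10.8), Ifit3 at 0.373 CPM (1 count), the 6 low genes summed at 5.599 CPM (next 2.03), Ifit1, Ifit3, Isg15 and Bst2 summed at 2.99 CPM (next 1.09), and the 49 other stimulated genes summed at 243.4 CPM (next 164). Rnf213 alone held 71.3 of these 243.4 CPM. Irf9 was also far apart in ctrl H, at 11.97 CPM against 8.57 in the next ctrl embryo, and Stat2 in dKO-E G was the lowest of its group at 9.79 CPM (next 15.1). Single counts set apart Ifit3 in ctrl D (0.334 CPM) and cKO-E C (0.367 CPM), and Isg15 in ctrl H (0.460 CPM), cKO-E C (0.367 CPM) and dKO-E E (0.841 CPM). Mavs was highest in cKO-E E at 7.47 CPM (next 6.52), still below every dKO-E embryo. Aim2 was highest among dKO-E embryos in G at 153.4 CPM (next 119.8). The 49 other stimulated genes summed lowest in cKO-E D, the shallowest library, at 108.1 CPM (next 133.8).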

How the results depend on the processing

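With 820915 counts in the shallowest library, 6 of the 9 genes did not pass the filter on low counts, and single counts decide their values. Of the alternative values for folds of single genes, 198 kept direction and side of the threshold, 14 lost the call, 5 gained one and 5 turned direction. The causes were not tested.

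In dKO-E against cKO-E, the Irf3 call was lost with DESeq2 (log2 fold change 0.40), without a filter (0.42, adjusted p = 0.109 over more genes), in batch 1 alone (0.42), and without the shallowest libraries, cKO-E D and dKO-E G (0.41), which was chosen after seeing the data. The count of the 9 genes called then went from 1 to 0, as it did at a threshold of 0.001. Leaving out single embryos gave 0.37 to 0.44 for Irf3 and a count of 0 to 1. Stat2 turned from -0.03 to 0.022 with total counts and ranged from -0.12 to 0.13 when single embryos were left out, with values above 0 without cKO-E A (0.13), cKO-E C (0.03) or dKO-E G (0.01). In dKO-E against ctrl, total counts gave 3 calls among the 9 genes, sex as a covariate gave 1 (Irf3, 0.35, edgeR adjusted p = 0.0482), and leaving out single embryos gave 0 to 1. Total counts also moved all-gene calls there from 620 higher and 1139 lower to 1783 and 694.

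Pathway genes called went from 4 to 0 (cKO-E against ctrl), 4 to 1 (dKO-E against ctrl) and 3 to 0 (dKO-E against cKO-E) at 0.001. In dKO-E against ctrl they went to 7 with total counts. Leaving out single embryos gave 3 to 6 (6 without ctrl F), 2 to 8 (2 without ctrl A, B or D or dKO-E C, 8 without ctrl H) and 2 to 5 (5 without cKO-E E). The summed ratio was 1.18 in batch 1 and 0.914 in batch 2 for cKO-E to ctrl, and 1.36 in batch 2 for dKO-E to cKO-E. The last value rests on dKO-E F (54.5 CPM) and G (37.0 CPM) alone. Without a filter, 26102 to 26644 genes were tested.

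Embryos share letters across genotypes, but same-letter deviations correlated at -0.36 to 0.145 and not every pair exceeded 0.1, so letters were not taken as pairs. The replicate block gave an Irf3 value of 0.39 in dKO-E against cKO-E (edgeR adjusted p = 0.141, 0 of the 9 genes called), turned Stat2 to 0.026 there, and lowered all-gene calls in dKO-E against ctrl from 1759 to 1018. A litter block lowered these to 585.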
